A study of Mus musculus with 45 samples.

Results

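The synaptic vesicle release machinery is described here as 63 genes of the count table. They were chosen by name and level: every protein-coding gene called Syt, Stx, Vamp, Cplx, Rims, Stxbp or Syn followed by a digit, with Sv2a to Sv2c, Rab3a to Rab3d, Unc13a to Unc13c, Snap25, Syp, Bsn and Pclo, was taken where its mean over the 45 libraries was at least 1 CPM (reads of a gene per 1000000 counted reads). Of the 54532 rows of the table, 71 protein-coding genes matched these names and 63 reached that level, among 13601 genes of the table that did. The other 8 (Cplx3, Cplx4, Stx11, Stx19, Syt8, Syt15, Vamp5 and Vamp9) stayed below it and were not followed further.

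A synaptic vesicle fuses when a vesicle SNARE protein (Vamp2, synaptobrevin) zips together with the SNARE proteins of the plasma membrane (a syntaxin such as Stx1a, and Snap25), a complex that the complexins clamp. Synaptotagmins, chiefly Syt1 in the forebrain, sense the calcium that enters with an action potential and trigger that last step. The scaffold proteins of the active zone (bassoon, piccolo and the RIMs) and the priming factor Munc13 (Unc13a) hold vesicles at the release site, while synapsins, synaptophysin, SV2 proteins and Rab3 belong to the vesicle itself. Many other syntaxins and Vamps serve the Golgi apparatus, endosomes or autophagosomes of every cell and have no established role at the active zone.

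RNA was sequenced from hippocampal primary neurons of newborn C57BL/6N mice, grown with rat serum and with the mitosis inhibitor AraC, and treated on day 10 or 11 in vitro per the sample labels, or day 11 per the sequencing methods. Control cultures were untreated, and others received the GABA type A receptor blocker bicuculline (Bic, 50 µM), which induces bursts of action potentials, for 0.5, 1 or 2 h. In the short protocol (SP), cultures already 0.5 h in Bic also received the sodium channel blocker tetrodotoxin (TTX, 1 µM) for another 0.5 h, alone or with NMDA (30 µM). The long protocol (LP) used 1 h for both steps and, besides TTX and TTX/NMDA, the glutamate uptake blocker TBOA (50 µM), and Bic stayed on the cells throughout. Culture preparations 1, 3, 6, 7 and 8 each gave 1 library of all 9 conditions, hence 5 libraries a condition. The passive effect compares TTX with Bic alone for 1 h (SP) or 2 h (LP), the active effect TTX/NMDA with TTX, the total effect TTX/NMDA with Bic, and spillover TBOA with 2 h Bic. The passive, active and total effects of a protocol share libraries, so their values are set side by side and are not counted as separate support.

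Between 11316580 and 81129276 reads per library were counted on genes. Levels are CPM after TMM scaling over all 45 libraries, and differences are log2 fold changes ± standard error (SE) from edgeR's quasi-likelihood test, called at a Benjamini-Hochberg adjusted p under 0.05 over all genes tested. The control library of preparation 3 stood apart. Its genes with the longest transcripts, those of at least 7742 bases, were lower beside those of at most 3266 bases by 0.32 on the log2 scale, against −0.17 to 0.086 in the other 44 libraries. Counts of called genes against control are given with and without this library. All 8 astrocyte and all 5 pan-neuronal marker genes were detected in every library, whereas the microglial markers summed to at most 15.2 CPM, the endothelial markers to at most 5.9 CPM, and endothelial Cldn5 was at 0 in 27 libraries.

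In the untreated control, levels per length differed widely between the genes. Complexin 1 (Cplx1, 317 CPM per kb), synaptophysin (Syp, 312 CPM per kb) and Vamp2 (303 CPM per kb) led, and below them stood, among others, Rab3a at 235, Cplx2 at 229, Syt11 at 206, Syn1 at 204, Syt1 at 164 and Snap25 at 154 CPM per kb. The syntaxin Stx1a was lower, at 98.5 CPM per kb, and the large scaffolds lower again, with Unc13a at 42.7 and Bsn at 27 CPM per kb. Summed over the 63 genes, the control libraries ranged from 16183 to 19244 CPM. After 2 h Bic the sum ranged from 18581 to 20960 CPM, after LP TTX from 18593 to 20643 CPM and after LP TTX/NMDA from 15573 to 16978 CPM. The LP TTX/NMDA libraries thus lay below every LP TTX library and overlapped the control range at its lower end. That overlap rested on the control library described above as standing apart, which held the lowest control sum. Every other control library lay above all LP TTX/NMDA libraries. Lower sums here are a smaller share of the counted reads after TMM scaling, and in bulk samples fewer cells of a type and less RNA per cell cannot be told apart.

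**Figure D1:**
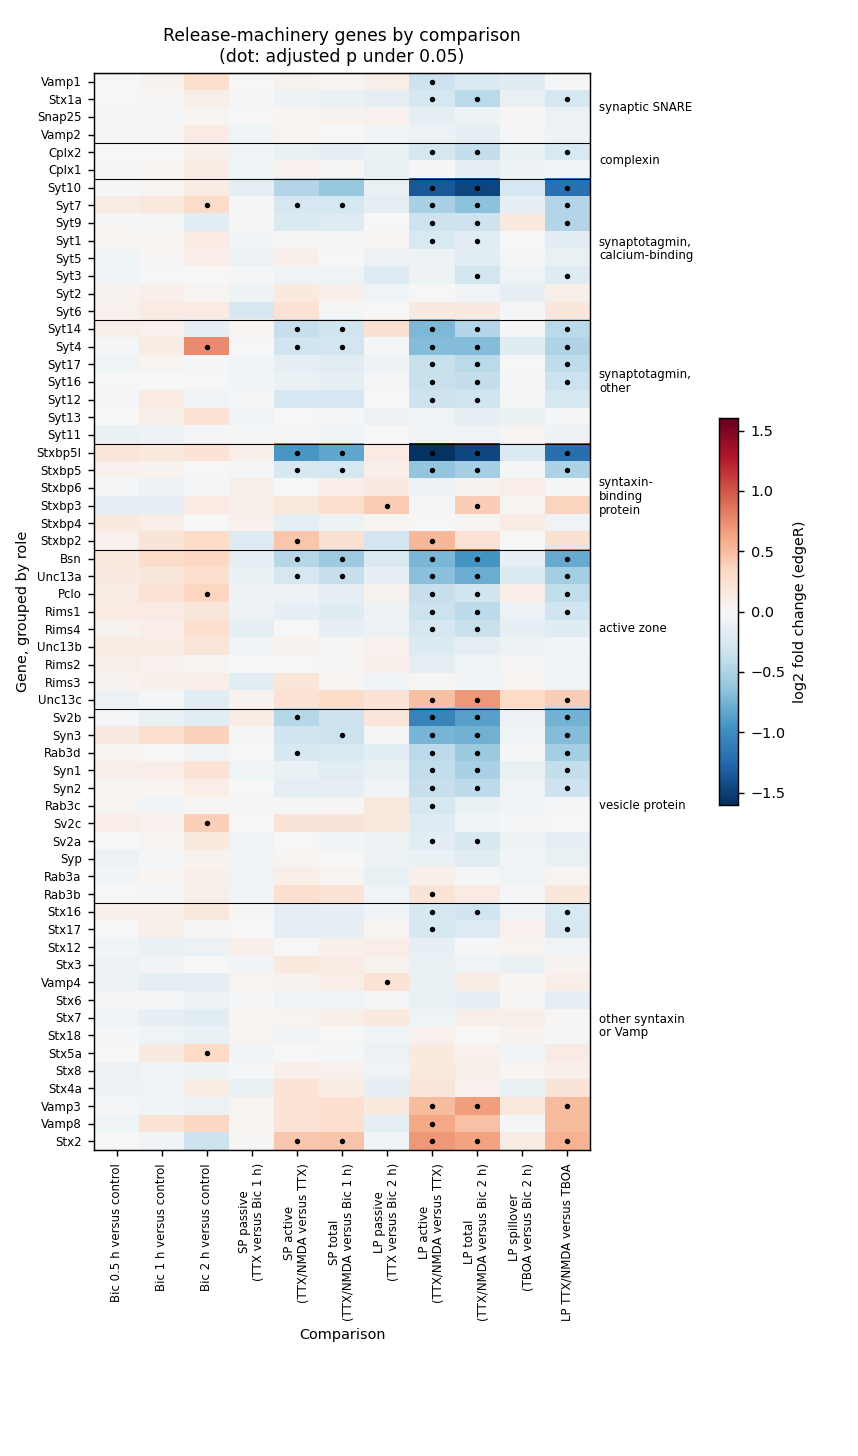
Log2 fold change of 61 of the 63 release-machinery genes (rows, grouped by role and sorted by the LP active effect) in 11 comparisons (columns), with blue for lower and red for higher levels and a dot where edgeR's adjusted p was under 0.05. The LP active column holds 28 dots on lower and 6 on higher genes, and the spillover column holds 0.

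Neither 0.5 h nor 1 h of Bic moved any release-machinery gene past the threshold. With edgeR, 0 of 63 were called at either time, as with DESeq2, and unadjusted p-values under 0.05 numbered 0 after 0.5 h and 3 after 1 h. Of all genes tested, 0.289% were called higher and 0.0% lower after 0.5 h, and 0.965% higher and 0.195% lower after 1 h. The 3 genes after 1 h were Syn3 (0.28 ± 0.13, adjusted p = 0.658 by edgeR), Pclo (0.22 ± 0.11, same adjusted p) and Stxbp2 (0.20 ± 0.10, same adjusted p). Among 17 core genes, taken for their known part in release (Syt1, Syt4, Syt7, Snap25, Vamp2, Stx1a, Cplx1, Cplx2, Rims1, Unc13a, Bsn, Pclo, Syn1, Syp, Sv2a, Sv2b and Rab3a), log2 fold changes ran from −0.093 (Syp) to 0.16 (Bsn) after 0.5 h and from −0.11 (Sv2b) to 0.29 (Bsn) after 1 h. The control of preparation 3 was the lowest control for Syn3 (5.75 CPM), Pclo (160.3 CPM) and Bsn (195 CPM), so their values lean on that library. Without that library, 0 of 63 genes were called at either time. The median of the 63 after 1 h was 0.041 with it and 0.0070 without it.

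After 2 h Bic, 5 of 63 genes were called higher and 0 lower, against 4.24% higher and 4.78% lower among all genes tested. Over the genes with a mean of at least 1 CPM, the level the members had to reach, 8.18% were higher and 10.4% lower, so the share of members called higher, 7.94%, was near the background. The median of the 63 was 0.099, beside −0.0020 over the 13601 genes with a mean of at least 1 CPM. Without the control library of preparation 3, the median of the 63 was 0.065. Syt4, a synaptotagmin without the calcium sensing of Syt1 that is found on dense-core vesicles, rose most. Its control libraries held 291, 432, 350.2, 372 and 451 CPM and the 2 h Bic libraries 645, 615, 579, 673 and 702 CPM, in the order of preparations 1, 3, 6, 7 and 8. All 5 treated libraries lay above all 5 controls (1.68-fold, log2 0.75 ± 0.09, edgeR adjusted p = 1.5e-07). The Syt4 gene is on chromosome 18 (31437808 to 31447406, minus strand, GRCm38).

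Syt7, the high-affinity calcium sensor of asynchronous release and facilitation, went from 168, 134, 187, 179 and 182 CPM to 199, 229, 219.9, 205 and 213 CPM. The groups did not overlap, and the difference was 0.31 ± 0.08 (edgeR adjusted p = 0.011). Stx5a, the syntaxin of transport between the endoplasmic reticulum and the Golgi apparatus, rose in 5 of 5 preparations from 43.4, 40.6, 42.1, 41.7 and 50.8 CPM to 57.2, 53.6, 51.2, 48.8 and 62.8 CPM, with 1 library of each group overlapping (0.31 ± 0.08, edgeR adjusted p = 0.010). The scaffold piccolo (Pclo) was at 281, 160.3, 254, 243 and 262 CPM in the controls and at 308, 305, 368, 306 and 245 CPM after 2 h Bic (0.34 ± 0.11, edgeR adjusted p = 0.038). Sv2c, an SV2 isoform of restricted distribution in the brain, went from 43.9, 31.5, 58.8, 49.2 and 44.8 CPM to 53.6, 61.6, 67.4, 73.2 and 44 CPM (0.38 ± 0.12, edgeR adjusted p = 0.036). For Pclo and Sv2c the groups overlapped, and preparation 3 held the lowest control value of both. No marker of astrocytes, oligodendrocyte lineage, microglia or endothelium was called in this comparison by edgeR, while of the neuronal markers Nefl (0.88), Dlx2 (0.66) and Neurod2 (0.27) were higher and Neurod6 (−0.35) lower.

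Without the control library of preparation 3, Pclo and Sv2c were no longer called. Then 4 genes were higher and 0 lower (background 4.29% and 5.08%): Syt4 (0.80 ± 0.08), Stxbp2 (0.34 ± 0.10), Stx5a (0.29 ± 0.08) and Syt7 (0.24 ± 0.07). Below, the paired fit takes the culture preparation as a block and also drops low-count genes with filterByExpr, so it differs from the main test in both choices. In the paired fit, 16 genes were higher and 3 lower, where 14.4% and 15% of all genes tested in that fit were called. Genes called higher in the paired fit included the fusion proteins Vamp1 (0.30) and Vamp2 (0.14), the priming factor Unc13a (0.29), Rims4 (0.28), the synapsin Syn1 (0.25) and Sv2a (0.17). Stx2 (−0.32), Stx7 (−0.16) and Sv2b (−0.15) were called lower in it. Unc13a held 615, 377, 622, 597 and 483 CPM in the controls against 624, 657, 706, 708 and 558 CPM after 2 h Bic, and Syn1 820.0, 476, 735, 730.2 and 605 against 817, 792, 882, 800.4 and 672 CPM. For both genes the groups overlapped and the control of preparation 3 was the lowest library. Vamp2 was at 1166, 1145, 1212, 1137 and 1117 CPM in the controls and at 1248, 1299.6, 1366, 1269 and 1214 CPM after 2 h Bic, which did not overlap, and its control of preparation 3 lay among the others. The paired fit without the control of preparation 3 called 18 genes higher and 5 lower (background 16.7% and 17.2%), with smaller values for Unc13a (0.16) and Syn1 (0.13) and with Vamp2 at 0.13, and it called Bsn (0.17). In the same fit at 1 h, Stxbp2 (0.22), Syt4 (0.18) and Bsn (0.17) were higher (background 5.05% higher and 3.69% lower). Syt1, Snap25, Stx1a, Cplx1, Cplx2, Rims1, Bsn, Syp and Rab3a were called in neither of the fits with all 10 libraries, with log2 fold changes from 0.051 (Snap25) to 0.33 (Bsn).

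By the main test, silencing the network with TTX moved few of these genes past the threshold, while the paired fit called more in the LP. In the SP, 0 of 63 were called with edgeR or DESeq2 and 2 had an unadjusted p under 0.05 (Rims3 and Rims4), against 0.0157% higher and 0.252% lower among all genes. The core genes ran from −0.14 (Bsn) to 0.12 (Sv2b). In the LP, Stxbp3 (Munc18-3, the partner of plasma membrane syntaxins outside the synapse) was higher by 0.40 ± 0.12 (edgeR adjusted p = 0.042) and Vamp4, a Vamp of the Golgi and endosomes, by 0.23 ± 0.06 (edgeR adjusted p = 0.025), each in 5 of 5 preparations. Both calls were lost without preparation 6 and without preparation 7. In each of the fits without preparation 1, without preparation 3 and with all 45 libraries, 1 of them was lost. Those 2 calls compare with 3.03% higher and 1.62% lower over all genes and 6.84% and 3.60% over those of at least 1 CPM. In the paired fit, 8 genes were higher and 12 lower, with a background of 15.7% and 16.2%, and the lower genes included Bsn (−0.24), Stx1a (−0.16), Syt7 (−0.15), Unc13a (−0.14), Syn1 (−0.13), Cplx1 (−0.13), Rab3a (−0.13) and Cplx2 (−0.11). Syt4, which had risen with Bic, did not differ detectably between LP TTX and 2 h Bic (−0.01 ± 0.07, edgeR adjusted p = 0.93).

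The LP active effect reached 36 of the 63 genes. With NMDA added to TTX for 1 h, 30 genes were lower (47.6%) and 6 higher (9.52%), against 11.8% lower and 11.6% higher over all genes tested and 26.9% and 20% over the genes with a mean of at least 1 CPM. The median of the 63 was −0.18, beside −0.010 for those expressed genes. Each of the 30 lower genes was lower in 5 of 5 preparations, and each of the 6 higher genes was higher in 5 of 5. Of the 17 core genes, 12 were lower and 0 higher. In the paired fit, 35 of the 63 were lower and 11 higher (background 28.5% lower and 33.6% higher), with Unc13b, Sv2c, Snap25, Rims2 and Stx12 added to the lower and Rab3a, Syt6, Stx5a, Stx8 and Stx4a to the higher genes.

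**Figure D2:**
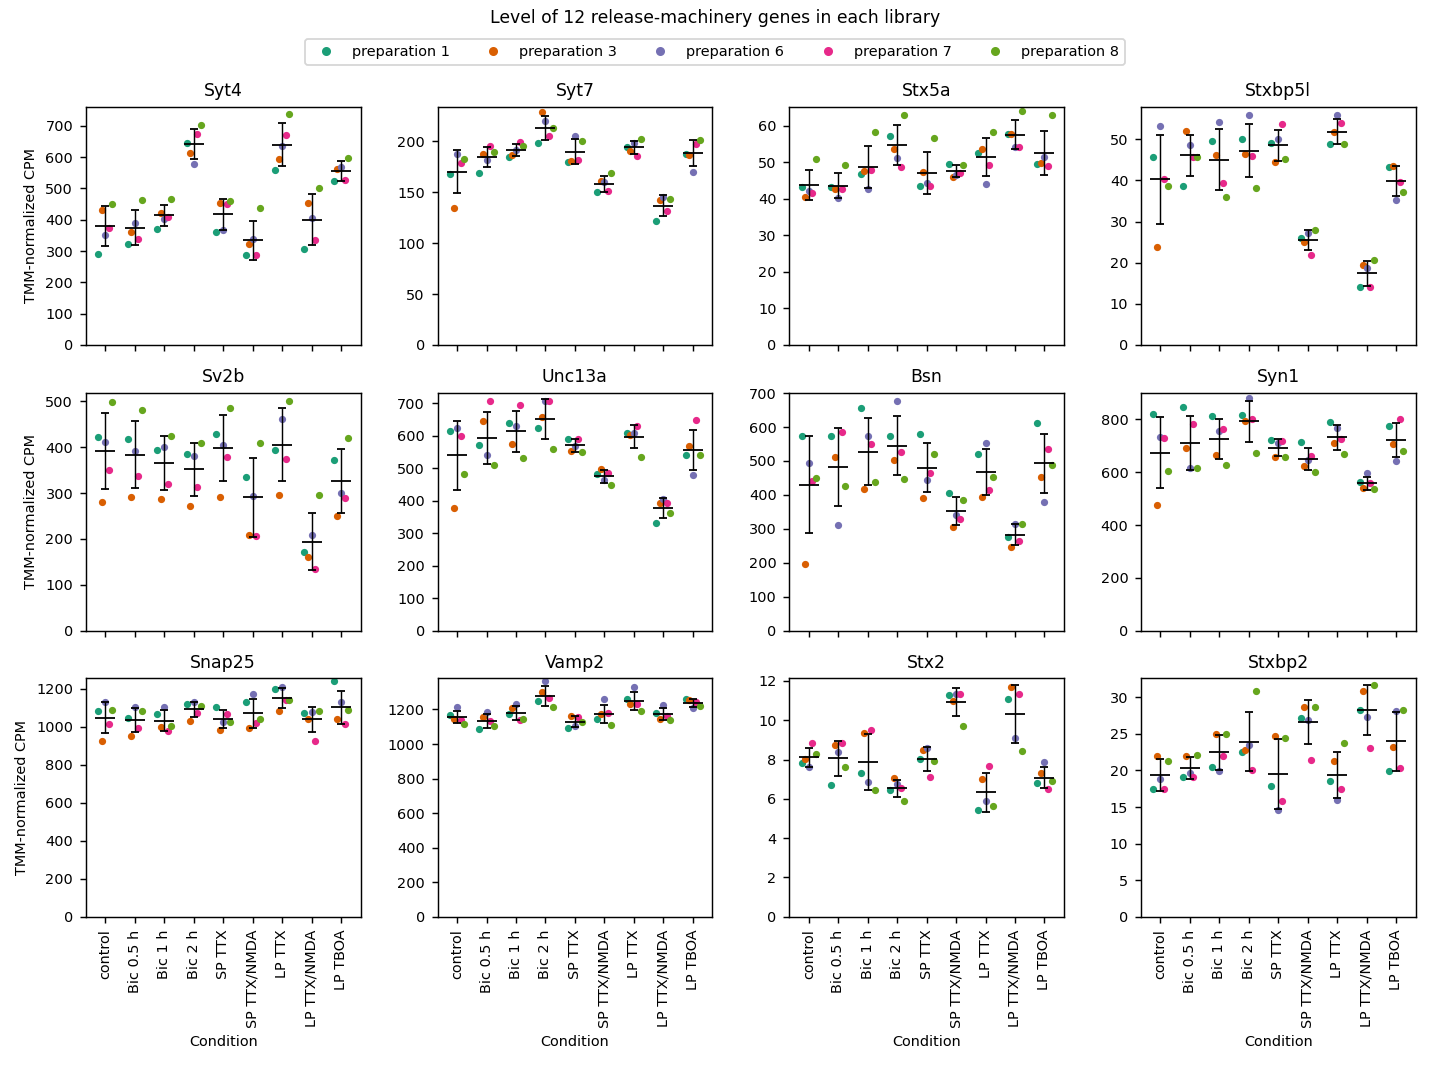
TMM-normalized CPM of 12 release-machinery genes in each of the 45 libraries (points, coloured by culture preparation) with the mean and SD of the 5 libraries of a condition (bars). Stxbp5l and Unc13a fell in LP TTX/NMDA below all LP TTX libraries, Snap25 and Vamp2 stayed within 0.16 of LP TTX on the log2 scale, and Stx2 and Stxbp2 rose.

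Among the SNARE proteins of fusion, Stx1a and Vamp1 fell, while Snap25 and Vamp2 were not called by the main test. Stx1a fell by 0.28 on the log2 scale (SE 0.07, edgeR adjusted p = 0.0032) and Vamp1, a Vamp of fast-spiking and spinal synapses, by 0.33 (SE 0.11, edgeR adjusted p = 0.024). Snap25 was at 1196, 1080.3, 1209, 1138 and 1139.5 CPM with TTX and at 1072, 1039, 1075, 924 and 1084 CPM with TTX/NMDA. That difference, −0.16 ± 0.07, was not called by the main test (edgeR adjusted p = 0.082) but was in the paired fit (edgeR adjusted p = 0.015). Vamp2 was called in neither (−0.10 ± 0.06, edgeR adjusted p = 0.29), nor was Vamp4 (−0.12 ± 0.07).

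The partners that hold and clamp the SNAREs split by gene. The tomosyns, which bind syntaxin and Snap25 in place of Vamp2 and so limit priming, fell. Stxbp5l (tomosyn-2, chromosome 16, 37114942 to 37384962, minus strand, GRCm38) showed the lowest log2 fold change of the 63, from 48.8, 51.9, 55.9, 54.0 and 48.9 CPM to 14.1, 19.5, 18.8, 14.2 and 20.6 CPM (0.333-fold, −1.58 ± 0.09, edgeR adjusted p = 1.3e-13). Stxbp5 (tomosyn-1) fell by 0.63 (SE 0.07). Stxbp2 (Munc18-2), which serves secretion in non-neuronal cells, rose from 18.5, 21.3, 15.9, 17.4 and 23.7 CPM to 28.3, 30.9, 27.3, 23.1 and 31.7 CPM, with 1 overlapping library a side (0.53 ± 0.10, edgeR adjusted p = 0.00013). Of the complexins, Cplx2 fell by 0.28 (SE 0.07, edgeR adjusted p = 0.0032) while Cplx1 stood at −0.03 ± 0.08 (edgeR adjusted p = 0.82), and the difference between the 2 genes was not tested.

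Of the 15 synaptotagmins, 9 were lower and 0 higher. Of the 8 that bind calcium, 4 fell: Syt10 (−1.35 ± 0.23), Syt7 (−0.51 ± 0.07), Syt9 (−0.34 ± 0.09) and Syt1 (−0.24 ± 0.06), the last being the sensor of fast synchronous release. Syt10, a sensor of growth factor secretion in olfactory neurons, was near the detection limit, at 1.24, 2.13, 2.65, 1.79 and 2.08 CPM with TTX and 0.578, 0.987, 0.905, 0.402 and 0.969 CPM with TTX/NMDA, without overlap. Syt7 went from 194, 190.4, 198, 186 and 202 CPM to 122, 142, 145, 131 and 144 CPM, also without overlap. Of the 7 others, Syt14 (−0.71 ± 0.09), Syt4 (−0.69 ± 0.10), Syt16 (−0.36 ± 0.07), Syt17 (−0.36 ± 0.10) and Syt12 (−0.33 ± 0.11) fell. Syt4 held 559.8, 595, 637, 672 and 738 CPM with LP TTX and 305, 452, 407, 335 and 501 CPM with TTX/NMDA, the latter near its range of 291 to 451 CPM in the untreated control, with 2 libraries above it. Syt11, which lacks calcium binding and had the highest control level per kb of the synaptotagmins, stood at −0.06 ± 0.06 (edgeR adjusted p = 0.53).

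Scaffolds and priming factors of the active zone fell in 5 of 9 cases. Bassoon (Bsn, chromosome 9, 108096022 to 108190384, minus strand, GRCm38) went from 522, 395, 553, 414 and 453 CPM to 276, 247, 315, 264 and 316 CPM, and Unc13a (Munc13-1) from 608, 601, 609, 629.8 and 535 CPM to 331, 394, 405, 394 and 363 CPM. Neither gene's groups overlapped (Bsn −0.73 ± 0.09, edgeR adjusted p = 1.3e-07, and Unc13a −0.67 ± 0.07, edgeR adjusted p = 1.2e-08). Pclo, whose LP TTX libraries held 299, 283, 427, 287 and 309 CPM, was at 221, 261, 270.1, 216 and 278 CPM with TTX/NMDA, each below the lowest TTX library (−0.37 ± 0.09). Rims1 fell by 0.34 (SE 0.07) and Rims4 by 0.26 (SE 0.07), whereas Rims2 (−0.15 ± 0.07), Rims3 (0.01 ± 0.07) and Unc13b (−0.21 ± 0.08) were not called. Unc13c (Munc13-3), at 7.43 CPM on average and known from cerebellar granule cells, rose by 0.48 (SE 0.12, edgeR adjusted p = 0.0028).

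Of the 11 genes for proteins of the vesicle itself, 7 were lower and 1 was higher. Calls differed among the SV2 genes and among the Rab3 genes, but differences between genes were not tested. Sv2b, the SV2 isoform of many glutamatergic neurons, fell by 1.07 (SE 0.14, edgeR adjusted p = 6.6e-07), from 395, 296, 461, 374 and 500.3 CPM to 171, 160.3, 208, 135 and 295 CPM. Its groups did not overlap. Sv2a, found at most synapses, fell by 0.18 (SE 0.07, edgeR adjusted p = 0.049), and Sv2c stood at −0.21 ± 0.10 (edgeR adjusted p = 0.15). The Sv2a call was lost on leaving out any 1 preparation. Among the synapsins, which tether vesicles to the reserve pool, Syn3 (−0.74 ± 0.12), Syn1 (−0.40 ± 0.07) and Syn2 (−0.36 ± 0.07) all fell, and Syn1 went from 791, 709, 766, 724 and 669 CPM to 562, 539, 596, 558 and 537 CPM without overlap. Of the Rab3 proteins, which carry vesicles to the RIMs, Rab3d (−0.42 ± 0.08) and Rab3c (−0.27 ± 0.09) fell, Rab3b rose (0.21 ± 0.07, edgeR adjusted p = 0.037) and Rab3a, the main neuronal form, stood at 0.08 ± 0.07 (edgeR adjusted p = 0.43). Synaptophysin (Syp), a membrane protein of nearly every synaptic vesicle, was not called (−0.11 ± 0.07, edgeR adjusted p = 0.33).

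Among the 14 syntaxins and Vamps of other membranes, 3 rose, 2 fell (Stx16, −0.26 ± 0.07, and Stx17, −0.25 ± 0.09) and the median was 0.0035. With 20% higher and 26.9% lower over the genes of at least 1 CPM, these counts are near or under the background. Stx2 (epimorphin), a plasma membrane syntaxin found in many cell types, rose from 5.41, 7.03, 5.87, 7.67 and 5.66 CPM to 11.1, 11.7, 9.12, 11.3 and 8.42 CPM, without overlap (1.61-fold, 0.69 ± 0.12, edgeR adjusted p = 7.5e-05). Vamp3 (cellubrevin), the widespread counterpart of Vamp2, rose by 0.51 (SE 0.10, edgeR adjusted p = 0.00036). Vamp8 (endobrevin) was near the detection limit, at 1.46, 1.59, 1.12, 1.5 and 0.893 CPM with TTX and 2.48, 2.07, 1.53, 2.5 and 1.55 CPM with TTX/NMDA, with overlap (0.62 ± 0.20, edgeR adjusted p = 0.021). The difference between these 14 genes and the others was not tested.

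Markers of cell types moved in the same comparison. In LP TTX/NMDA against LP TTX, 7 of 8 astrocyte markers were higher and 1 (Slc1a2) lower, with their sum at 1221 to 2215 CPM against 1049 to 1605 CPM, and 5 of 7 oligodendrocyte lineage markers were higher (159 to 312 CPM against 101 to 167 CPM). Summed microglial markers were at 9.9 to 15.2 CPM against 7.5 to 10.3 CPM, with 3 of 7 called higher. Of the neuronal lists, 4 of 4 excitatory markers were lower (671 to 942 CPM against 1432 to 1661 CPM), 2 of 4 inhibitory markers were higher (1362 to 2029 CPM against 1245 to 1852 CPM), and 2 of 5 pan-neuronal markers, Map2 and Nefl, were lower (3064 to 3447 CPM against 4146 to 4456 CPM) while Tubb3, Rbfox3 and Elavl4 were not called. The part of these shifts in the results for Stx2, Vamp3, Vamp8 and Stxbp2, or for Sv2b and the other genes that fell, was not tested.

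**Figure D3:**
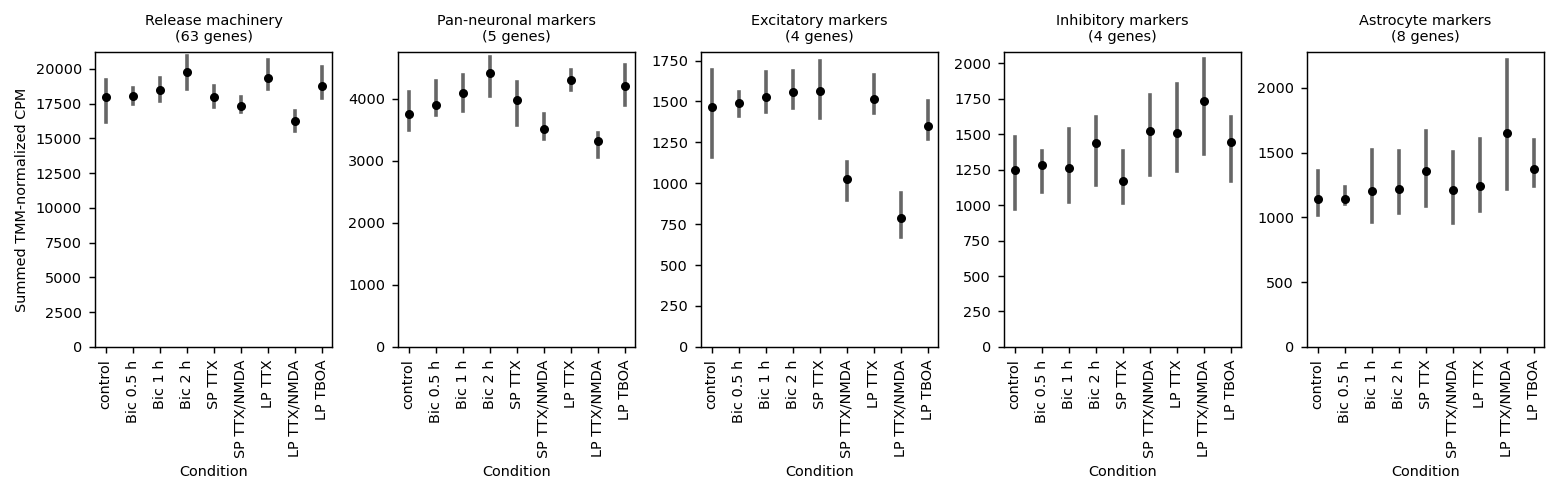
Summed TMM-normalized CPM of the 63 release-machinery genes and of 4 marker lists in the 9 conditions (dot: mean of 5 libraries; bar: lowest to highest library; axes start at 0). In LP TTX/NMDA the release machinery, pan-neuronal and excitatory sums lay below every LP TTX library, while the astrocyte sum had its highest mean.

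In the SP, where NMDA acted for 0.5 h, the active effect reached 11 of 63 genes, 9 lower and 2 higher, against 3.32% lower and 0.956% higher over all genes and 7.80% lower and 1.73% higher over those of at least 1 CPM. The median of the 63 was −0.0075. Stxbp5l again showed the lowest value, from 49.2, 44.5, 50.1, 53.6 and 45.1 CPM to 25.9, 24.9, 27.1, 21.8 and 28 CPM without overlap (−0.93 ± 0.08, edgeR adjusted p = 1.5e-10). Next came Sv2b (−0.46 ± 0.13), Bsn (−0.45 ± 0.09), Syt14 (−0.37 ± 0.08), Syt4 (−0.32 ± 0.09), Unc13a (−0.27 ± 0.06), Syt7 (−0.27 ± 0.07), Stxbp5 (−0.26 ± 0.07) and Rab3d (−0.26 ± 0.08). Bsn held 579.7, 390.3, 445, 464 and 521 CPM with SP TTX and 404, 306, 342, 329 and 386 CPM with SP TTX/NMDA, which overlapped, and Unc13a 589.6, 552, 569, 590.0 and 549 against 482, 498, 463, 486 and 447 CPM, which did not. Both genes were lower in 5 of 5 preparations, as were the other 7 genes that fell. Stxbp2 (0.44 ± 0.11) and Stx2 (0.43 ± 0.10) rose. Stx2 went from 8.05, 8.50, 8.59, 7.10 and 7.93 CPM to 11.3, 11.0, 11.3, 11.3 and 9.73 CPM, without overlap. No fusion SNARE, complexin or synapsin was called by the main test, and Stx1a (−0.08 ± 0.07), Syn1 (−0.10 ± 0.07), Rims1 (−0.13 ± 0.07), Pclo (−0.08 ± 0.09) and Cplx2 (−0.11 ± 0.07) stood below 0 with adjusted p-values of 0.39 or more by edgeR. Syt1, Snap25, Vamp2, Cplx1, Syp, Sv2a and Rab3a ran from −0.01 (Sv2a) to 0.10 (Rab3a).

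Astrocyte, oligodendrocyte lineage and microglial markers were not called higher in the SP active comparison: 1 of 8 astrocyte markers was called, lower, and 0 of 7 in each other list, while 3 of 4 excitatory markers and 2 of 5 pan-neuronal markers were lower and 2 of 4 inhibitory markers, Gad1 (0.39) and Dlx1 (0.27), higher. The paired fit called 14 release-machinery genes lower and 4 higher there (background 10.3% and 5.93%), with Syn3, Syt9, Syt10 and Syt12 among those added to the lower and Rab3b and Vamp3 added to the higher genes. Fitted with all 45 libraries, only Stxbp5l, Stxbp5, Syt7, Syt14, Stx2 and Stxbp2 of the 11 kept their call.

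All 11 genes called in the SP active comparison were called in the same direction in the LP, which shares no library with it but comes from the same preparations. They are 100% of the SP calls and 30.6% of the 36 LP calls. The like share over the SP calls of all genes was not computed, so the overlap is not read as a trait of these genes. When the 2 active effects were tested against each other, 3 genes fell further in the LP: Stxbp5l (−0.64 ± 0.12, edgeR adjusted p = 0.0015), Unc13a (−0.38 ± 0.09, edgeR adjusted p = 0.0089) and Stxbp5 (−0.35 ± 0.10, edgeR adjusted p = 0.035). Over all genes, 1.85% differed in that direction and 0.722% in the other, and over those of at least 1 CPM 4.65% and 1.45%. For Stxbp5l the fall was larger in the LP in 5 of 5 preparations. In the paired fit, 28 genes differed downwards and 1 upwards (background 15.1% and 9.85%), with Sv2b (−0.60), Syn1 (−0.29) and Syt1 (−0.25) among the former and Vamp3 (0.31) the latter.

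**Figure D4:**
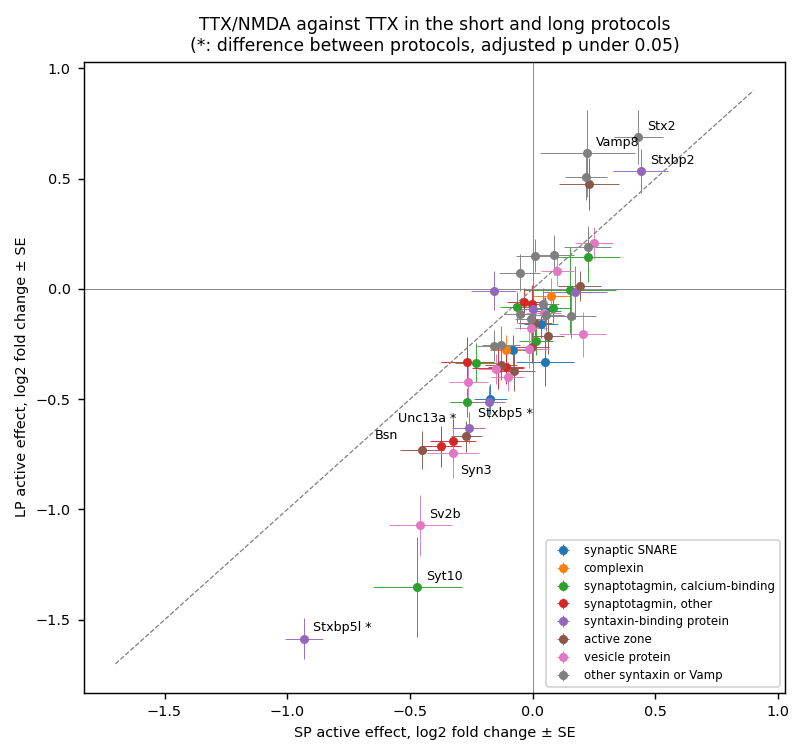
Log2 fold change ± SE of TTX/NMDA against TTX in the short (x axis) and long (y axis) protocols for the 63 release-machinery genes, coloured by role, with a dashed line of equal values and asterisks at the genes whose 2 effects differed. Most genes with values below 0 lie under the line, and Stxbp5l lies lowest on both axes at −0.93 and −1.58.

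Measured against uninterrupted Bic, the totals held 10 lower genes and 1 higher in the SP (background 3.41% and 0.891%) and 28 lower and 4 higher in the LP (11.1% and 11.7%). Over the genes of at least 1 CPM, the shares were 7.75% lower and 1.63% higher in the SP and 25.1% lower and 20.2% higher in the LP. In the SP, the 8 called lower with the largest values were Stxbp5l (−0.83), Bsn (−0.58), Unc13a (−0.37), Syn3 (−0.34), Syt14 (−0.32), Syt4 (−0.31), Stxbp5 (−0.29) and Syt7 (−0.28), and Stx2 (0.46) was higher. The paired fit called 23 lower and 6 higher there (background 15.6% and 11.7%). In the LP, Syt10 (−1.47), Stxbp5l (−1.46), Bsn (−0.96), Sv2b (−0.87), Unc13a (−0.80), Syn3 (−0.77), Syt4 (−0.70) and Syt7 (−0.65) led the lower genes, and Unc13c (0.70), Vamp3 (0.66), Stx2 (0.65) and Stxbp3 (0.39) were the higher ones. These comparisons reuse the TTX/NMDA libraries of the active effects. In the LP total, 7 of 8 astrocyte markers were higher and 1 lower, and 5 of 7 oligodendrocyte lineage markers were higher. Of 4 excitatory markers 3 were lower, of 4 inhibitory markers 3 were higher, and of 5 pan-neuronal markers 2 were lower and 1 higher.

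Spillover did not move the release machinery detectably. With TBOA against 2 h Bic, edgeR and DESeq2 each called 0 of 63 genes, where edgeR called 0.0536% of all genes higher and 0.549% lower, and 7 genes had an unadjusted p under 0.05. Among them were Stxbp5l (−0.23 ± 0.08), Unc13a (−0.22 ± 0.07), Syt4 (−0.20 ± 0.06), Vamp1 (−0.20 ± 0.09) and Syt7 (−0.16 ± 0.06), each lower in 5 of 5 preparations, and Unc13c (0.32 ± 0.12), higher in 5 of 5. Their smallest edgeR adjusted p was 0.24 (Syt4). Without preparation 8, Stxbp5l and Unc13a were called.

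Set directly against TBOA, LP TTX/NMDA lowered 25 of 63 genes and raised 3 (background 7.99% and 8.6%, and 18.5% and 14.8% over the genes of at least 1 CPM), and the paired fit called 30 lower and 10 higher (background 22.4% and 25.1%). Stxbp5l was at 43.3, 43.4, 35.2, 39.7 and 37.3 CPM with TBOA, above all 5 TTX/NMDA libraries (−1.20 ± 0.10, edgeR adjusted p = 1.0e-11). Syt10 (−1.19 ± 0.22), Bsn (−0.81 ± 0.09), Sv2b (−0.76 ± 0.13), Syn3 (−0.69 ± 0.12), Unc13a (−0.56 ± 0.08), Rab3d (−0.54 ± 0.08) and Stxbp5 (−0.51 ± 0.08) followed, and Stx2 (0.55 ± 0.11), Vamp3 (0.51 ± 0.10) and Unc13c (0.40 ± 0.11) were higher. Of the core genes, Snap25, Vamp2, Cplx1 and Rab3a were not called here, and Syt1 (−0.16), Sv2a (−0.15) and Syp (−0.12) were called lower only in the paired fit. Cell type markers moved here too. Of the astrocyte markers 7 of 8 were higher and 1 lower, and 4 of 7 oligodendrocyte lineage markers were higher. Excitatory markers were lower in 3 of 4 cases, inhibitory markers higher in 3 of 4 and pan-neuronal markers lower in 2 of 5. Their part in these results was not tested.

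In all, 3 lists of other synaptic vesicle genes, which held no member, were counted in the same way. In the LP active comparison, 26.9% of the genes of at least 1 CPM were lower and 20% higher. Of 32 partners in priming, docking and the active zone, 19 were lower and 4 higher, with a median of −0.29, led by Syde1 (0.75 ± 0.14), the SNARE-recycling ATPase Nsf (−0.73 ± 0.07) and the scaffold Erc2 (−0.71 ± 0.07). Of 31 genes of vesicle endocytosis, 16 were lower and 3 higher (median −0.18), with the phosphatases Synj2 (−0.99 ± 0.11) and Synj1 (−0.71 ± 0.07) lower and Ston1 (0.84 ± 0.19) higher. Of 21 transmitter transporters and vesicle membrane genes, 10 were lower and 1 higher (median −0.26), led by the vesicular glutamate transporters Slc17a7 (−0.83 ± 0.09) and Slc17a6 (−0.59 ± 0.09) and by Syngr1 (−0.55 ± 0.07). In the SP active comparison, the counts in the same order were 7 lower and 1 higher, 8 lower and 0 higher, and 2 lower and 1 higher, with Lin7a (−0.39 ± 0.09), Synj2 (−0.40 ± 0.08) and Slc17a7 (−0.40 ± 0.09) the lowest of each list. Over the genes of at least 1 CPM, 7.80% were lower and 1.73% higher, so the 2 lower of 21 lie near that share. After 2 h Bic, 4 genes of the 3 lists were higher, among them Ppfia1 (0.69 ± 0.09) and Slc17a6 (0.40 ± 0.08), and Fcho2 was lower (−0.52 ± 0.10). Of the genes of at least 1 CPM, 8.18% were higher and 10.4% lower, shares that the list counts did not exceed. Spillover again gave 0 calls in the 3 lists.

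Promoter sequence was read from RefSeq windows on GRCm38.p6 that run from 250 bases before to 50 bases after each start site. Such windows were given for 49 of the 63 genes and for 27025 genes in all. They were searched on both strands for the cAMP response element (CRE, TGACGTCA), its shorter core TGACG, AP-1 (TGANTCA), the E-box CACGTG and the CArG box, a CRE holding 1 core on each strand. The core was found in 15 of 49 members (30.6%) against 23% of all genes, a CRE in 2 (4.08%, Syn1 and Stxbp3) against 2.03%, an E-box in 7 (14.3%) against 8.09%, AP-1 in 2 (4.08%) against 8.97% and a CArG box in 1 (2.04%) against 1.81%. Of the 22 genes that fell in the LP active comparison and have a window, 5 (22.7%) held a core, as did 8 of the 22 that were not called (36.4%). A window each is shown for genes that rose with Bic (Stx5a and Pclo), were called higher in the paired fit and fell with NMDA (Syn1 and Unc13a) or fell furthest (Stxbp5l), with TGACG and its reverse complement in capitals.
Stx5a, chr19:8741174-8741473, plus strand: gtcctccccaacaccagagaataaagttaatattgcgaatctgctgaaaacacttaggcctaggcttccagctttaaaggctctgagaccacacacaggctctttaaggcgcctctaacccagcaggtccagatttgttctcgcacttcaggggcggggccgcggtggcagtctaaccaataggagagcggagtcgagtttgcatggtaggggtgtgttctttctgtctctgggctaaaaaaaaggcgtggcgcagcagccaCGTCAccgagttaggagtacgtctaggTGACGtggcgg
Pclo, chr5:14514668-14514967, plus strand: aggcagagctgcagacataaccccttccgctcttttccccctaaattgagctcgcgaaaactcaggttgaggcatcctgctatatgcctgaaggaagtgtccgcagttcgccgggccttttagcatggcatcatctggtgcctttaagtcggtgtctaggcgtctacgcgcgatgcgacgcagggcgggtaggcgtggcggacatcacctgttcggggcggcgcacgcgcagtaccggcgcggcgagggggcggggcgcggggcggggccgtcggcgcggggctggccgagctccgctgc
Syn1, chrX:20920869-20921168, minus strand: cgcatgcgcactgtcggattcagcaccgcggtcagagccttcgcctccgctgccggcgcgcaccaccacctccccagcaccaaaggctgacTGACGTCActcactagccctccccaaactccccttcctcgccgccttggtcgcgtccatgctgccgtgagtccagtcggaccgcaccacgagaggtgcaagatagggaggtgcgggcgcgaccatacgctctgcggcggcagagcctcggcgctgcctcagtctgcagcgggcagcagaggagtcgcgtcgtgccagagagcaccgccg
Unc13a, chr8:71671708-71672007, minus strand: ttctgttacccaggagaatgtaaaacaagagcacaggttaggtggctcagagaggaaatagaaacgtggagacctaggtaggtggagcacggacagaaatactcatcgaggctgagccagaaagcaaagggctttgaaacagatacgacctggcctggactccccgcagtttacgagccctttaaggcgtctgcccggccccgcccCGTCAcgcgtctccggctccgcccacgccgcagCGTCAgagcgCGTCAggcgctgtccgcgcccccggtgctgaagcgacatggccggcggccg
Stxbp5l, chr16:37384909-37385208, minus strand: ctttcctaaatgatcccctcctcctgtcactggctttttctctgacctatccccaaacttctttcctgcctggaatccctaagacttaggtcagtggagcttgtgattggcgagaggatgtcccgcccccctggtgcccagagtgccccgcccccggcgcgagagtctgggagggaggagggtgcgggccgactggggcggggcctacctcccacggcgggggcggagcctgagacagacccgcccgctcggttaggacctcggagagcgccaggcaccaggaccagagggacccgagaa
The Syn1 window carries the full CRE. The Unc13a window holds 3 cores that begin at −44, −11 and −1 from its start, the last running across it. The Stx5a window holds 2 beyond its start, while those of Pclo and Stxbp5l hold no TGACG on either strand. Stx5a has a further window with 2 cores. These matches describe the letters only. The windows of Syt4 and Syt7 were not given.

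Across the 63 genes, the LP active log2 fold change had a Spearman correlation of −0.30 with the genomic span of the gene and of −0.31 with its mean CPM. Over the 13593 expressed genes with coordinates the values were −0.30 and −0.42. These points share libraries and are given as a description. In the annotation, 61 of the 63 genes share no exon base with another gene on their strand, and Bsn and Stx5a share 0.358% and 1.88% of theirs.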

How the data were processed

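The authors sequenced strand-specific poly-A libraries, aligned the reads with STAR 2.5.4b to GRCm38, counted sense reads per gene of Ensembl 94 with featureCounts 1.6.5 (reads that hit several places or genes left out), per the labels and methods, and deposited raw counts, which are used here without change. Genes were named from the gene tables and located with GENCODE M21. Each pair of conditions was tested on its own libraries with edgeR 4.0.16 (R 4.3.3; TMM, glmQLFit and glmQLFTest, genes with at least 1 read, Benjamini-Hochberg over all of them). SE is the log2 fold change divided by the square root of F. CPM came from TMM over 45 libraries, and no 2 libraries were identical. The fits were tested on simulated counts. Alternatives were DESeq2 1.42.0, RLE, filterByExpr, all 45 libraries, each preparation left out, and the preparation as a block with filterByExpr. Replicate numbers mark shared culture preparations per the labels, and same-numbered libraries deviated together (mean correlation 0.35 to 0.55 by comparison, lowest pair −0.20). Named were 17 core genes, up to 8 called genes a direction in each comparison, and by library the 3 called genes of largest change a direction for 2 h Bic and LP active, with core genes whose call varied; further genes given by library (Syt7, Stx5a, Bsn, Unc13a and Pclo among them) were chosen after their values were seen. Some genes are counted but not reported by name here. Members and lists were chosen with earlier results of these data known. P-values rest on the spread between 5 preparations, moderated towards a spread pooled over all genes tested. That pooled part had a prior of 20.4 to 44.9 degrees of freedom in the main fits and of 5.5 to 7 with filterByExpr. Depth limits Syt10 and Vamp8, at 1.73 and 1.45 CPM on average.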

Additional observations from a re-analysis of the deposited data

Results flagged for a closer look

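Among 135 groups of 5 libraries (15 genes described by library, 9 conditions), 8 held 1 library far from the other 4 by Dixon's test, which chance alone gives in about 1 group of 20. Pclo had 2 of them, both in preparation 6, at 165.7 CPM after 0.5 h Bic and at 427 CPM after LP TTX. Stx5a had 2 in preparation 8, at 50.8 CPM in the control and 63.03 CPM with TBOA. Preparation 8 also gave the SP TTX/NMDA library that stood apart for Stx2 (9.73 CPM) and the SP TTX library that stood apart for Vamp8 (1.03 CPM). In preparation 7, Stxbp2 stood apart with SP TTX/NMDA (21.5 CPM) and Snap25 with LP TTX/NMDA (923.5 CPM).

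The active effect differed between the protocols by edgeR's interaction test for Stxbp5l (−0.638), Unc13a (−0.384) and Stxbp5 (−0.354), each log2 value being the LP minus the SP effect. Stxbp5l kept this call without any 1 preparation. Unc13a lost it without preparation 1 or 3 and Stxbp5 without preparation 1, 3, 6 or 7.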

How the results depend on the processing

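No direction of a called gene turned under any alternative. Of 128 calls of single genes, 128 held in the paired fit, 127 with RLE scaling, 123 with DESeq2, 118 with filterByExpr, 111 with all 45 libraries in 1 fit and 99 (without preparation 1) to 126 (without preparation 8) with 1 preparation left out. Counts of called genes in the LP active, LP total and TTX/NMDA against TBOA comparisons stayed within 1.5 times the reported ones. The cause of the following changes was not tested. With the replicate block, which pairs libraries by preparation, and filterByExpr together, the count went from 5 to 19 after 2 h Bic, from 11 to 18 for SP active, from 11 to 29 for SP total, from 2 to 20 for LP passive and from 3 to 29 for LP minus SP active (with filterByExpr alone these counts were 4, 7, 11, 3 and 6), and it changed no call in the 0.5 h and 1 h Bic, SP passive and spillover comparisons. DESeq2 gave 5 for LP passive and 9 for LP minus SP, and the fit of all 45 libraries gave 6 for SP active and 1 for LP passive. Leaving out 1 preparation gave 3 to 9 after 2 h Bic, 5 to 15 for SP active, 4 to 18 for SP total, 0 to 3 for LP passive, 0 to 2 for spillover and 1 to 6 for LP minus SP. Leaving out only the control library of preparation 3, chosen after seeing the data, gave 4 after 2 h Bic. With the block it gave 23 after 2 h and 3 after 1 h Bic.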
